A study of Homo sapiens with 2 samples.

Results

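The genes described here encode the machinery that copies DNA: the origin recognition complex and the factors that load the replicative helicase, the helicase itself and its activators, the sliding clamp and its loader, the single-strand binding protein RPA, the polymerases and primase, the enzymes that finish lagging-strand fragments, and the enzymes that supply deoxynucleotides. They were chosen by name, and 45 of the 46 listed genes had a row among the 37122 rows of the count table. PRIM2, the large primase subunit, was not analysed here. Every one of the 45 genes passed the minimum of 10 reads in the 2 libraries together that defined the 18778 genes compared.

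In a proliferating cell, origins are licensed in G1 when the origin recognition complex, CDC6 and CDT1 load the MCM2-7 helicase onto DNA. In S phase, CDC45 and the GINS complex join the helicase and start it, primase and polymerase alpha lay down primers, and polymerases epsilon and delta, held on DNA by PCNA, extend the strands. Many of these genes are transcribed under the control of E2F factors as cells leave G1, and Burkitt's lymphoma is a B-cell tumor known for very rapid proliferation.

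RNA-seq compared Ramos, an established human Burkitt's lymphoma (BL) B-cell line, with Ramos640, a line derived from it by growth in rising amounts of rituximab, an antibody against CD20, in the presence of normal human serum, until it resisted complement-dependent cytotoxicity (CDC). Ramos640 cells were kept resistant by exposure to rituximab at 640 (labelled mg/mL, but μg/mL in the study's methods) with 20% serum every 21 days, and Ramos cells were not treated. Both lines were grown in RPMI 1640 containing fetal bovine serum (10%) and penicillin/streptomycin (1%). RNA from 3 passages of each line was pooled into 1 library per line, so no difference between the lines has a replicate check, Ramos640 is a selected derivative of a single parental line, and selection, drug exposure and drift in culture cannot be told apart.

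The libraries held 38030090 reads (Ramos) and 30871826 reads (Ramos640). The libraries were scaled by size factors (1.14 and 0.876) taken as the median of gene-wise ratios, and fold changes of Ramos640 against Ramos are given as log2 values after adding 1 to every scaled count. The range printed with a value is its 95% interval, obtained by the exact Clopper-Pearson method from the split of that gene's reads between the libraries. It covers counting error only, not variation between cultures. All 8 B-cell markers examined had reads in both libraries. MS4A1, which encodes CD20, had 9654 Ramos reads and 1904 Ramos640 reads (log2 fold change -1.96). Of the 8 T-cell markers, CD3D, CD2 and CD8A were at 0 in both libraries, whereas LCK (7221 and 4572 reads) and TRAC (1555 and 583 reads) were well covered in both. IL7R had 237 and 0 reads, CD3E had 1 and 31, CD3G had 5 and 1, and the list summed to 9014 and 5186 reads. No epithelial marker exceeded 19 reads and no monocyte marker exceeded 13 reads in either library.

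As a whole, the replication genes differed little between the lines. Their median log2 fold change was -0.086 over 45 genes, with quartiles of -0.28 and 0.075, and the values ran from -0.64 for RFC4 to 0.66 for GINS3. Over all genes compared the median was -0.015, with wider quartiles of -0.40 and 0.34. That background includes genes of few reads. The 8226 genes with at least 1000 reads, a minimum that each of the 45 genes also met, lie closer to the replication genes in depth, and their median was 0.0048 and their quartiles were -0.26 and 0.26. Their depth was still lower, with a median of 3301.5 reads in the 2 libraries together. That median was 8615 for the replication genes and 672 for all genes compared. The summed reads of the 45 genes were 317805 in Ramos and 237095 in Ramos640, which is 0.836% and 0.768% of the library, and a scaled log2 fold change of -0.042 (-0.049 to -0.034).

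By a 1.5-fold change, the fold part of the study's criteria, whose false discovery rate was not applied here for lack of replicates, 1 of the 45 genes was higher in the Ramos640 library (GINS3) and 2 were lower (RFC4 and TK1). In the same comparison 14.6% of all genes were higher and 17.3% lower by this criterion, 31.9% in all, and among genes with at least 1000 reads the shares were 6.87% and 7.93%, 14.8% in all. TK1 lay just past the limit, at a fold of 0.666, while RFC1, PRIM1 and POLE2, at folds of 0.679, 0.676 and 0.675, lay just short of it, and POLD2, at 1.42, was the nearest below it on the other side. On total counts in place of size factors, GINS3 fell short of the criterion at a log2 fold change of 0.58, and RFC1, PRIM1 and POLE2 passed it.

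Most of the smaller differences still exceeded counting error. The interval lay above 0 for 15 genes and below 0 for 24, and it included 0 for GMNN, MCM5, ORC3, RFC2, RPA2 and POLA2. Intervals above 0 were found for 29.6% and below 0 for 31.6% of all genes (40.9% and 39.4% of those with at least 1000 reads). Intervals below 0 were held by 53.3% of the replication genes and intervals above 0 by 33.3%. More reads narrow an interval, so these shares also depend on depth, which was not matched here or for the lists below. The split between the directions rests on the scaling: on total counts 9 intervals lay above 0 and 28 below. With TMM factors these counts were 12 and 25, as MCM10, RPA3 and POLA1 lost their call, and with the GC trend removed, that is, after subtracting a running median of the log2 fold change over transcript GC content, 13 and 23. In pooled cells, fewer cells in S phase and less RNA per cell cannot be told apart.

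**Figure D1:**
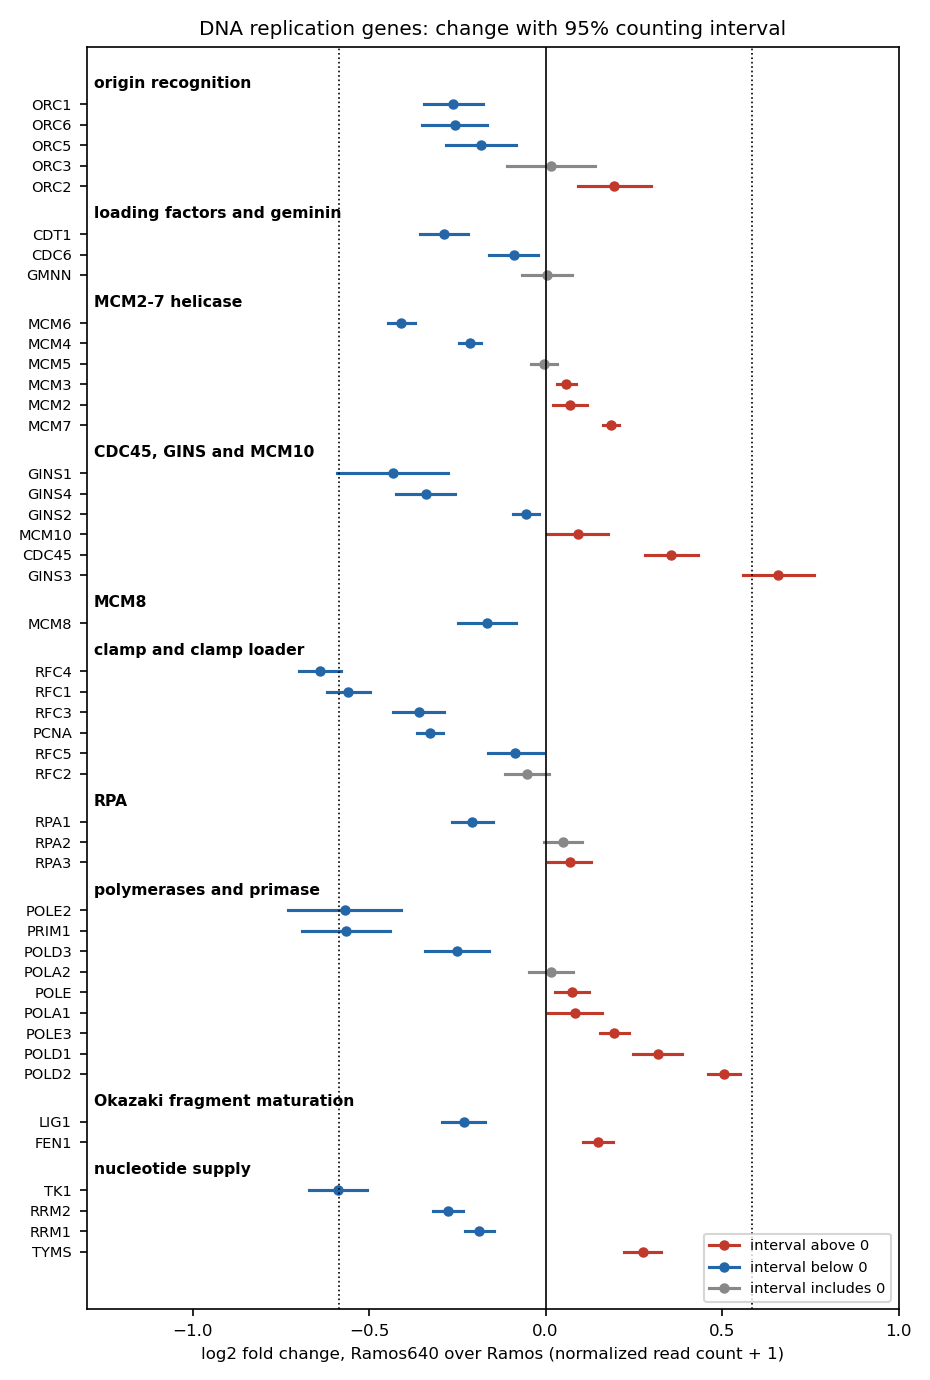
Log2 fold changes, Ramos640 over Ramos (horizontal axis, normalized read count plus 1), are plotted for each of the 45 genes, grouped by role, with lines for the 95% counting interval and dotted lines at 1.5-fold. GINS3 lies past the right dotted line and RFC4 and TK1 past the left, and all 6 clamp and clamp loader genes lie left of 0.

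**Figure D2:**
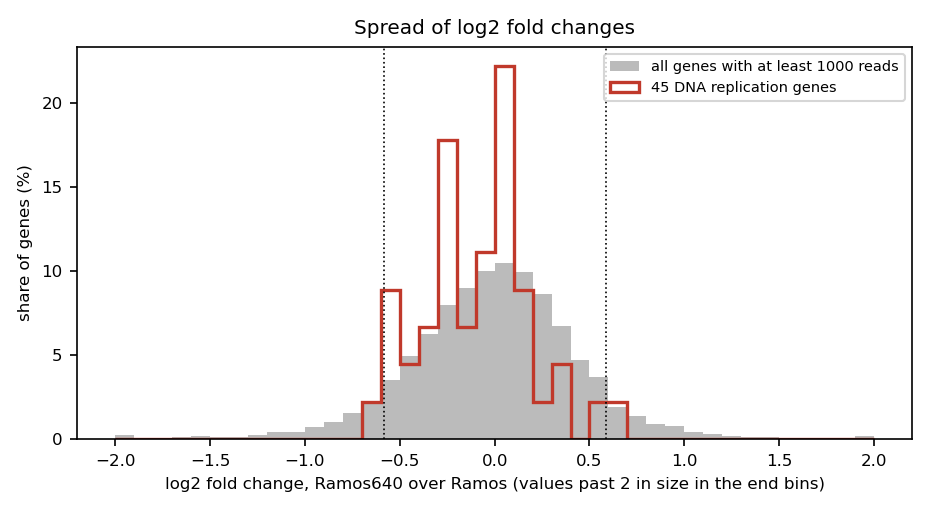
The share of genes (vertical axis, %) is shown by log2 fold change (horizontal axis) for the 45 replication genes (red line) and for all 8226 genes with at least 1000 reads (grey), with dotted lines at 1.5-fold. The replication genes run from -0.64 to 0.66, with GINS3 past the right dotted line and RFC4 and TK1 past the left. The grey distribution also reaches beyond the dotted lines on either side.

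Promoter sequences are shown for the 2 genes with the largest rises (GINS3 and POLD2), for the 2 with the largest falls (RFC4 and TK1) and for MCM6 and MCM7, which sit at opposite ends of the changes within the MCM2-7 helicase. They come from the RefSeq promoter table, were found in GRCh37 by an exact match, and run 5′ to 3′ on the gene's own strand over 260 bases, of which 250 precede the transcription start. Capitals mark E2F-type letters on either strand, which are TTTCGCGC or TTTGGCGC, or the shorter TTCCCGC, alternatively TTCGCGC, alternatively TTGGCGC, or instead TTGCCGC, and overlapping matches are merged into 1 run. The positions are chr16:58426125-58426384 on the plus strand for GINS3 and, all on the minus strand, chr7:44163138-44163397 for POLD2, chr3:186524262-186524521 for RFC4, chr17:76183124-76183383 for TK1, chr2:136634004-136634263 for MCM6 and chr7:99699011-99699270 for MCM7. TK1 has 2 promoters and MCM7 has 3 in the table, of which 1 each is shown. The GINS3 promoter lies inside the span annotated for that gene (chr16:58328984-58440051) and not at its start.
GINS3: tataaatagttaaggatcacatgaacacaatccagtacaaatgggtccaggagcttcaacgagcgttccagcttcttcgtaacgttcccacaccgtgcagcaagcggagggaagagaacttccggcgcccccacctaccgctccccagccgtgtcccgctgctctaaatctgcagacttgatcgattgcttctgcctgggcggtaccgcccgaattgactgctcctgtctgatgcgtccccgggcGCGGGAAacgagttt
POLD2: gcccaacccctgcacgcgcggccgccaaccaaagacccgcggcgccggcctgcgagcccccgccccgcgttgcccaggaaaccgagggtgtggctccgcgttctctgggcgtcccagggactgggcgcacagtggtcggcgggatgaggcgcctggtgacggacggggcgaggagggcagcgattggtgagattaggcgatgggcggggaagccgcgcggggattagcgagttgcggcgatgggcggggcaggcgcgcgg
RFC4: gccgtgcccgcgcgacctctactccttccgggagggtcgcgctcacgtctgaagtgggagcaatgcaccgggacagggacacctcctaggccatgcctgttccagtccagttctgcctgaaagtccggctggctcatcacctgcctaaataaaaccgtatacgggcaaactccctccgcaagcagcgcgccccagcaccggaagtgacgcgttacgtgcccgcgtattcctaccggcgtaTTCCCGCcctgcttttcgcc
TK1: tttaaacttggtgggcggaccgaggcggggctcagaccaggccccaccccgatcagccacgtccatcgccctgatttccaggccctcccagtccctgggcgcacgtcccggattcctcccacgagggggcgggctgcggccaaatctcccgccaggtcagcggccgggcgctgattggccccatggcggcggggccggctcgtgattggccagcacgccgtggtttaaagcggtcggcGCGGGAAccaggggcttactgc
MCM6: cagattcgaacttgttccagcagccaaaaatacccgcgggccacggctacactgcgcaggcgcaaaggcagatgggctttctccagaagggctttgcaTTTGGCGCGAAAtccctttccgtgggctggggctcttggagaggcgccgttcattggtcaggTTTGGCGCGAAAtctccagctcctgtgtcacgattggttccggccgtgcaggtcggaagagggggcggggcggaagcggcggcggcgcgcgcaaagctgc
MCM7: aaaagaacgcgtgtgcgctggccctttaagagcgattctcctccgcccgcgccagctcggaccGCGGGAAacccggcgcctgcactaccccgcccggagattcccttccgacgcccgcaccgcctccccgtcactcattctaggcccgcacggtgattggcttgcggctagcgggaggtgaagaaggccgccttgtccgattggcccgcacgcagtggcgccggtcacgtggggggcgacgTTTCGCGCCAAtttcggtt

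In GINS3, RFC4 and TK1 the marked letters began 5, 10 and 12 bases before the transcription start. MCM6 held the 8-letter form in 2 runs, which began 152 and 90 bases before the start. In MCM7 a 7-letter form began 187 bases before the start and the run with the 8-letter form 9 bases before it. POLD2, the gene with the next largest rise after GINS3, held none of these letters in this window.

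The promoter table had an entry for 39 of the 45 genes. MCM4, MCM5, GINS4, RPA2, RPA3 and POLD3 had none. Over 250 bases before to 50 after the start, the 8-letter E2F form was present in 12 of 39 genes (30.8%), against 1.4% of 27305 genes in the table, and a 7-letter form in 31 of 39 (79.5%), against 15.3%. The CCAAT letters bound by NF-Y were present in 25 (64.1%, against 39.7%) and the GC box GGGCGG in 30 (76.9%, against 48.3%). TTTGAA, the core letters of the cell cycle homology region (CHR), were present in 2 genes only, POLE3 and RRM1 (5.13%, against 18.2%). The 7-letter and 8-letter searches overlap, since the longer letters contain shorter ones.

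The 12 genes with the 8-letter form were CDC6, GMNN, MCM2, MCM3, MCM6, MCM7, GINS1, MCM8, POLA1, POLA2, POLE and POLE2. Their median log2 fold change was 0.0097, and that of the 27 others was -0.18. The 12 values ran from -0.57 for POLE2 to 0.19 for MCM7. With the 7-letter form the order was turned, at -0.17 for 31 genes with it and 0.17 for 8 without, and the genes with it included both ends of the range, RFC4 and GINS3. These are matches of letters and do not show that a factor binds there. With the GC trend removed, the 12 genes with the 8-letter form ran from -0.44 for POLE2 to 0.30 for POLA1. The 27 without it ran from -0.80 for TK1 to 0.78 for GINS3. Group medians were not taken on that scale, and the part of GC content in the differences between medians was not tested.

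Origin recognition is carried out by the ORC subunits, which mark the sites where helicases are loaded. ORC1, the subunit whose level rises and falls with the cell cycle, had 2962 Ramos reads against 1898 from Ramos640, a log2 fold change of -0.26 (-0.34 to -0.18). ORC6, the smallest subunit, had nearly the same change, with 2451 and 1574 reads (-0.26, -0.35 to -0.17). ORC5 had 2034 and 1376 reads (-0.18, -0.28 to -0.083). ORC2 was the only ORC gene of the list with an interval above 0, with 1637 and 1438 reads (0.19, 0.091 to 0.30). ORC3, the partner of ORC2 in the body of the complex, had 1198 and 930 reads and an interval that included 0 (0.016, -0.11 to 0.14). The median of the 5 genes was -0.18, and with the trend over GC content removed it was 0.023, as ORC5 turned to 0.023. On that scale ORC2 stood at 0.44 and ORC3 at 0.30, each above its printed interval, with ORC1 at -0.34 and ORC6 at -0.23.

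CDC6 and CDT1 bring the MCM2-7 helicase to ORC, and geminin, encoded by GMNN, blocks CDT1 once S phase has begun. CDT1 was lower in Ramos640, with 4538 and 2857 reads (log2 fold change -0.29, -0.35 to -0.22). CDC6 had 4037 and 2911 reads (-0.091, -0.16 to -0.022). GMNN had 3636 and 2799 reads, level with the scaling (0.0036, -0.068 to 0.075). The ratio of GMNN to CDT1 reads, which needs no scaling between the libraries, rose from 0.801 in Ramos to 0.980 in Ramos640, a log2 change of 0.29 (0.19 to 0.39), or 0.60 with the GC trend removed.

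The 6 subunits of the MCM2-7 helicase, a ring that unwinds the parental strands, did not move together. MCM6 was clearly lower, with 14497 Ramos reads and 8387 Ramos640 reads (log2 fold change -0.41, -0.45 to -0.37), and MCM4 less so, with 20905 and 13851 reads (-0.21, -0.24 to -0.18). MCM7 was higher, with 36568 and 31933 reads (0.19, 0.16 to 0.21). MCM2 had 7813 and 6289 reads (0.068, 0.020 to 0.12) and MCM3 had 26709 and 21360 reads (0.059, 0.033 to 0.085). Both changed sign on total counts, to -0.012 for MCM2 and -0.022 for MCM3. MCM5 had 13310 and 10187 reads with an interval that included 0 (-0.0047, -0.042 to 0.033). The median of the 6 genes was 0.027, but -0.053 on total counts and -0.15 with the GC trend removed, where MCM7 came to -0.00039. Within the ring the ratio of MCM6 to MCM2 reads changed by -0.48 on the log2 scale (-0.54 to -0.41), that of MCM4 to MCM2 by -0.28 (-0.34 to -0.22), and that of MCM3 to MCM2 by -0.0094 (-0.064 to 0.045). Once the GC trend was removed, these values were -0.15 for MCM6, -0.065 for MCM4 and 0.071 for MCM3. MCM8, a relative of these subunits that acts with MCM9 in repair by recombination, had 3008 and 2059 reads (-0.17, -0.25 to -0.084), and 0.026 with the GC trend removed.

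CDC45 and the 4 GINS subunits turn the loaded ring into an active helicase, and MCM10 takes part in this step. GINS3 (chr16:58328984-58440051, plus strand, GRCh37) had 1467 reads in Ramos and 1779 in Ramos640, the only replication gene past 1.5-fold in the upward direction (log2 fold change 0.66, 0.56 to 0.76). GINS1 moved the opposite way, with 912 and 519 reads (-0.43, -0.59 to -0.28), as did GINS4, with 3027 and 1837 reads (-0.34, -0.42 to -0.26). GINS2 was by far the most abundant GINS transcript and changed little, with 13789 and 10189 reads (-0.055, -0.092 to -0.018). The read ratio of GINS3 to GINS1 therefore went from 1.61 to 3.43, a log2 change of 1.09 (0.91 to 1.28), or 0.96 with the GC trend removed, the largest of the ratio changes computed here on either scale. CDC45 was higher, with 2916 and 2867 reads (0.36, 0.28 to 0.43). MCM10 had 2427 and 1985 reads (0.091, 0.0048 to 0.18).

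The genes of the clamp and its loader shared a direction. All 6 genes were lower in Ramos640 under each of the scalings, 5 of them with intervals below 0, and their median was -0.34 (-0.22 with the GC trend removed, where RFC5 alone turned, to 0.014). PCNA, the ring that tethers polymerases to DNA, had 15228 Ramos reads and 9321 Ramos640 reads (log2 fold change -0.33, -0.36 to -0.29). RFC4 (chr3:186507669-186524847, minus strand, GRCh37), a small subunit of the clamp loader, had 6991 and 3448 reads (-0.64, -0.70 to -0.58), the lowest value of the 45 genes. RFC1, the large subunit specific to the loader of PCNA, had 6225 and 3245 reads (-0.56, -0.62 to -0.50), and RFC3 had 4129 and 2472 reads (-0.36, -0.43 to -0.29). The small subunits RFC5, with 3140 and 2272 reads (-0.086, -0.16 to -0.0074), and RFC2, with 5059 and 3746 reads (-0.052, -0.11 to 0.0088), changed least. The read ratio to RFC1 changed by 0.51 (0.42 to 0.59) for RFC2, by 0.47 (0.37 to 0.57) for RFC5 and by -0.080 (-0.16 to 0.0050) for RFC4. These changes were 0.16, 0.35 and -0.27 with the GC trend removed, where RFC4 no longer lay level with RFC1. The row of the antisense transcript PCNA-AS1 held 1452 and 1410 reads (0.34). The strand setting of the counting is not given in the sources used here, so reads of PCNA and PCNA-AS1 may not be separable.

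RPA coats the single strands exposed at the fork. RPA1, the largest subunit, was lower, with 6028 Ramos reads and 4009 Ramos640 reads (log2 fold change -0.21, -0.27 to -0.15). RPA2, the middle subunit, had 6589 and 5235 reads (0.049, -0.0034 to 0.10). RPA3, the smallest, had 4992 and 4018 reads (0.068, 0.0077 to 0.13), which became -0.012 on total counts, as the median of the 3 genes went from 0.049 to -0.031. The ratios of RPA2 and RPA3 to RPA1 reads were both higher in Ramos640, by 0.26 (0.18 to 0.33) and 0.28 (0.19 to 0.36).

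The subunits of the polymerases diverged within each enzyme. POLD1, the catalytic subunit of polymerase delta, was higher in Ramos640, with 3420 and 3274 reads (log2 fold change 0.32, 0.25 to 0.39). POLD2, its second subunit (chr7:44154230-44163957, minus strand, GRCh37), was the next largest rise after GINS3, with 7611 and 8290 reads (0.50, 0.46 to 0.55). POLD3, a further accessory subunit, was lower, with 2534 and 1635 reads (-0.25, -0.34 to -0.16), so that its read ratio to POLD1 changed by -0.57 (-0.68 to -0.46), or by -0.20 with the GC trend removed.

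In polymerase epsilon, the leading-strand enzyme, the catalytic POLE had 7687 and 6217 reads (log2 fold change 0.075, 0.026 to 0.12, but -0.0054 on total counts). POLE2 was lower, with 950 and 492 reads (-0.57, -0.73 to -0.41), and POLE3, a histone-fold subunit shared with a chromatin remodeler, was higher, with 10520 and 9245 reads (0.19, 0.15 to 0.24). The read ratio of POLE2 to POLE went from 0.124 to 0.0791 (-0.64, -0.81 to -0.48, or -0.36 with the GC trend removed). In polymerase alpha, which starts each new strand, the primase subunit was the lowest of those analysed, both before and after the GC trend was removed. POLA1, its catalytic subunit, had 3052 and 2484 reads (0.084, 0.0070 to 0.16), and POLA2 had 4850 and 3765 reads (0.016, -0.046 to 0.077). PRIM1, the small subunit that makes the RNA primer, was lower, with 1518 and 788 reads (-0.56, -0.69 to -0.44). Its ratio to POLA1 changed by -0.65 (-0.79 to -0.50), or by -0.74 with the GC trend removed. On that scale POLA1 stood at 0.30, POLA2 at -0.017 and PRIM1 at -0.43, so POLA1 and POLA2 no longer lay level. The median over the 9 polymerase and primase genes was 0.075, but -0.0054 on total counts and -0.017 with the GC trend removed.

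FEN1 cuts the flaps of lagging-strand fragments and LIG1 seals the nicks. FEN1 was higher, with 9872 Ramos reads and 8397 Ramos640 reads (log2 fold change 0.15, 0.11 to 0.19), and LIG1 was lower, with 5414 and 3540 reads (-0.23, -0.29 to -0.17). FEN1 stood at 0.019 and LIG1 at -0.41 with the GC trend removed, and at 0.067 and -0.31 on total counts.

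Of the enzymes that supply deoxynucleotides, 3 of 4 were lower. TK1 (chr17:76170172-76183314, minus strand, GRCh37), the cytosolic thymidine kinase of the salvage route, had 3485 Ramos reads and 1781 Ramos640 reads (log2 fold change -0.59, -0.67 to -0.50). TYMS, which makes thymidylate by the de novo route, was higher, with 5919 and 5498 reads (0.27, 0.22 to 0.33). The enzymes for thymidylate by salvage and by synthesis thus differed in opposite directions. The ribonucleotide reductase subunits were both lower. RRM1, the large subunit, had 11797 and 7952 reads (-0.19, -0.23 to -0.15), and RRM2, the S-phase small subunit, had 10954 and 6946 reads (-0.28, -0.32 to -0.23). The read ratio of RRM2 to RRM1 changed by -0.088 (-0.15 to -0.028), and by -0.19 with the GC trend removed.

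Levels between genes were compared as reads per kilobase of exon union, scaled to the library total (RPKM), within each library. PCNA was the highest of the genes plotted, at 285 RPKM in Ramos and 215 in Ramos640. MCM7 (194 and 209) and MCM3 (193 and 190) followed. By the length of the longest transcript MCM7 stood above PCNA in both libraries (312 against 295 in Ramos and 335 against 222 in Ramos640). By either length GINS1 was the lowest, at 2.99 and 2.1 over the exon union. In the MCM2-7 ring the order MCM7, MCM3, MCM6, MCM4, MCM5, MCM2 was the same in both libraries, with 4.45 and 4.83 times as much of the highest as of the lowest. With the length of the longest transcript in place of the exon union the ratios were 5.21 and 5.65, and MCM4 stood above MCM6 in Ramos640. Subunits of GINS, a complex with 1 copy of each, differed far more, with GINS2 at 37.7 and 48.9 times the level of GINS1 (25.9 and 33.6 by longest transcript). GINS3 passed GINS4 between the libraries, from 7.55 against 14.6 RPKM in Ramos to 11.3 against 10.9 in Ramos640. RFC4 was the highest clamp loader gene in Ramos (61.3 RPKM, with RFC2 at 60.2) and stood below RFC2 in Ramos640 (37.3 against 54.9), an order that by longest transcript was kept as RFC4 above RFC2.

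**Figure D3:**
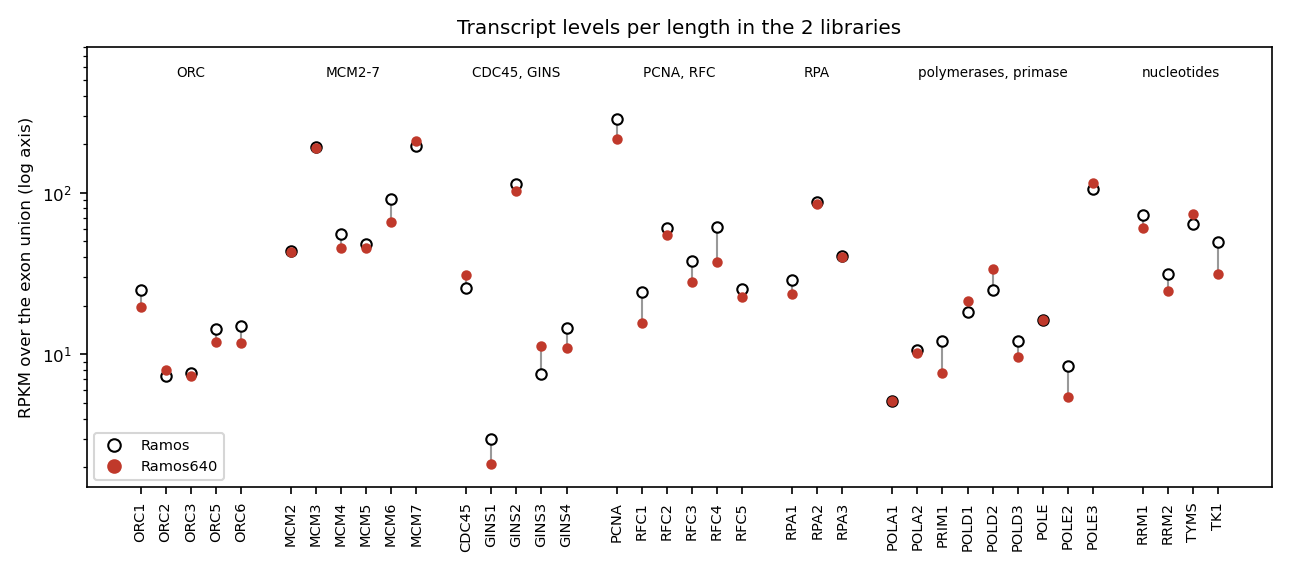
Levels of 38 replication genes in RPKM over the exon union (vertical log axis) are shown by complex or role, with open circles for Ramos and red circles for Ramos640. PCNA is highest and GINS1 lowest in both libraries, and GINS3 passes GINS4 between the libraries.

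Other genes of the pathway, from lists chosen with earlier results of these data known, gave a background of related function. Of 11 other licensing and firing factors, 3 (27.3%) had intervals above 0 and 8 (72.7%) below, with a median of -0.24. Of all genes, 29.6% had intervals above 0 and 31.6% below (40.9% and 39.4% of those with at least 1000 reads). These shares stand beside the counts of the lists that follow as well. The kinase that fires origins was lower in both parts, with CDC7 at 1605 and 761 reads (log2 fold change -0.69) and its activator DBF4 at 2921 and 1704 (-0.40). Its alternative activator DBF4B was higher (950 and 920 reads, 0.33). ORC4, the remaining core ORC subunit, had 677 and 391 reads (-0.41), and DONSON, a factor for helicase assembly, had 1885 and 996 (-0.54). RECQL4, a helicase of the RecQ family, was the highest of the list (2163 and 2269 reads, 0.45). With the GC trend removed the median was -0.075, and CDC7 stood at -0.38, DBF4 at -0.075, DBF4B at 0.19, ORC4 at -0.093, DONSON at -0.45 and RECQL4 at 0.28.

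Of 23 other fork, clamp and chromatin factors, 8 (34.8%) had intervals above 0 and 14 (60.9%) below (median -0.13). The histone chaperone ASF1A (-0.54) and topoisomerase TOP2A (-0.49) were the lowest, and SSRP1, a subunit of the FACT chaperone (0.47), and POLE4, the histone-fold partner of POLE3 (0.29), the highest. Other nucleotide enzymes were divided evenly, with 4 of 10 above and 4 below (median 0.046, but -0.034 on total counts). CAD, which starts pyrimidine synthesis (0.45), and DCTD, a deaminase that feeds thymidylate synthesis (0.33), were highest, and DCK, a salvage kinase (-0.47), and RRM2B, the reductase subunit induced by p53 (-0.54), lowest. Without the GC trend ASF1A stood at -0.17, TOP2A at -0.19, DCK at -0.16, RRM2B at -0.18 and CAD at 0.26. POLD4, with 4396 and 2487 reads (-0.44, -0.51 to -0.37), went to -0.62. On that scale it was the lowest of the fork, clamp and chromatin factors.

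Past 1.5-fold lay 14.6% of all genes upward and 17.3% downward (6.87% and 7.93% of those with at least 1000 reads). Of the 13 genes of the E2F and RB family, 1 was past 1.5-fold upward and 4 downward, and the median was -0.28. With the GC trend removed, 0 were past 1.5-fold upward and 1 downward (TFDP2, -0.90), and the median was -0.24, with E2F4 at 0.58, E2F5 at -0.52, RB1 at -0.51 and RBL2 at -0.46. E2F4, which binds DNA mostly as a repressor in resting cells, was the highest, with 4518 Ramos reads and 5883 Ramos640 reads (log2 fold change 0.76). RB1, the retinoblastoma protein gene, had 1366 and 591 reads (-0.83), and RBL2, its relative p130, had 2727 and 1365 (-0.62). The DNA-binding partner TFDP2 had 3047 and 1235 reads (-0.92), the lowest of the list. Among the activating E2Fs, E2F1 was higher (4558 and 4404 reads, 0.33), while E2F2 (-0.072) and E2F3 (-0.24) were lower. E2F5 (5997 and 2607 reads, -0.82) and E2F6 (-0.32), which repress, were lower. The atypical repressors differed in direction, with E2F7 at 0.31 and E2F8 at -0.42.

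Of 6 S phase cyclins and kinases, CCNE2 was far lower, with 1298 and 552 reads (log2 fold change -0.85), while CCNE1, the other E-type cyclin, had 1620 and 1341 (0.11). CCNA2 (-0.37) and CDK2 (-0.26) were lower, CDC25A, the phosphatase that activates CDK2, stood at 0.020, and the median was -0.27. Of 11 replication checkpoint genes, 3 had intervals above 0 and 5 below (median -0.10, but 0.025 with the GC trend removed). Their lowest were RAD17, which loads the checkpoint clamp (-0.79), and the kinase CHEK1 (-0.62), and their highest were CHEK2 (0.58) and RAD9A (0.34). CCNE2 stood at -0.53, CCNA2 at -0.17, CHEK1 at -0.39 and RAD9A at 0.15 with the GC trend removed.

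Mitotic genes were examined as a sign of cycling cells other than replication itself. Of 23 genes, 19 (82.6%) had intervals below 0 and 2 (8.7%) above. Among all genes these shares were 31.6% and 29.6%, and 39.4% and 40.9% of those with at least 1000 reads. The median of the 23 genes was -0.24, or -0.16 with the GC trend removed. CDK1, the mitotic kinase, had 6927 Ramos reads and 3797 Ramos640 reads (log2 fold change -0.49), and the kinetochore gene NDC80 had 2011 and 1062 (-0.54). UBE2C, which works with the anaphase-promoting complex, was the exception past 1.5-fold upward (7926 and 9190 reads, 0.59), and AURKB stood at 0.071. MKI67, the proliferation marker Ki-67, had 28322 and 21914 reads (0.011). Without the GC trend CDK1 stood at -0.17, NDC80 at -0.27 and UBE2C at 0.54, short of 1.5-fold, while AURKB turned to -0.088. The part of the cell cycle distribution in the values of the replication genes was not tested.

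**Figure D4:**
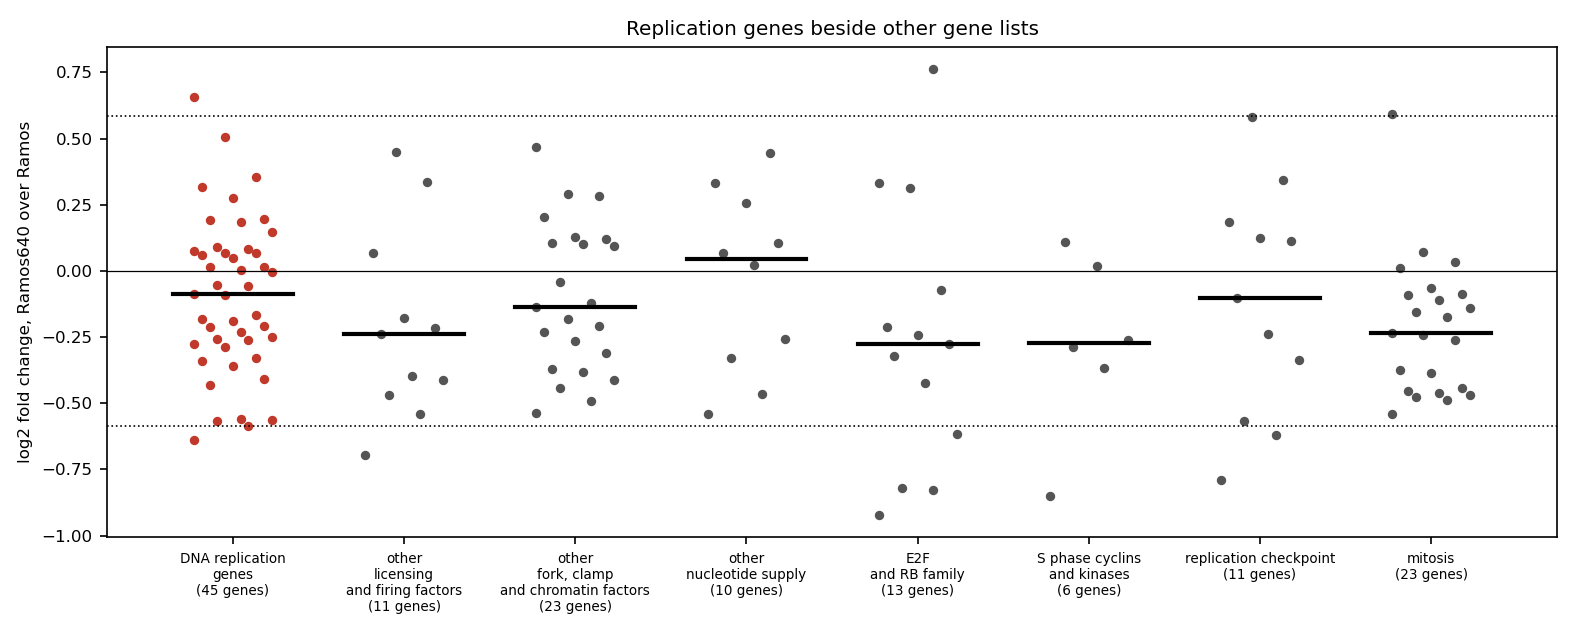
Each point is a gene's log2 fold change, Ramos640 over Ramos (vertical axis), for the 45 replication genes (red) and the 7 related lists (grey), with bars at the medians and dotted lines at 1.5-fold. The medians run from -0.28 for the E2F and RB family to 0.046 for other nucleotide supply (-0.034 on total counts), and the replication genes, at -0.086, lie between.

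The values were also set against GC content and chromosomal surroundings. GC-rich transcripts had higher values in general (10245 protein-coding genes of 100 or more reads, Spearman's rho 0.42, Pearson's r 0.28, across genes of the same 2 libraries, which are not independent). Over the 45 replication genes, which ranged from 38.0% to 64.3% GC with a median of 46.1%, rho was 0.26 and r 0.23. With the trend removed, the median of the replication genes was -0.064, RFC4 stood at -0.61, GINS3 at 0.78 and TK1, a gene of 62.8% GC, at -0.80. POLD2, at 58.7% GC, came to 0.33.

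For the chromosomal surroundings, the median of the 10 nearest protein-coding genes with at least 100 reads on each side was taken. TYMS had only 12 such neighbors in all, and the neighbors spanned up to 19.0 Mb (ORC6). RFC4 lay among neighbors that were also lower, with a median of -0.54 and 18 of 20 lower over 10.2 Mb of chromosome 3. For the other clamp loader genes the neighbor medians were -0.33 (RFC1), -0.29 (RFC3), 0.11 (RFC2) and 0.074 (RFC5). The neighbors of POLD2 had a median of 0.26, those of GINS3 0.11 and those of TK1 0.099. Over the 45 genes, 27 had the sign of their neighbors (rho 0.24, r 0.32, with neighborhoods that overlap where members are near each other). The part of GC content or neighborhood in these values was not tested.

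**Figure D5:**
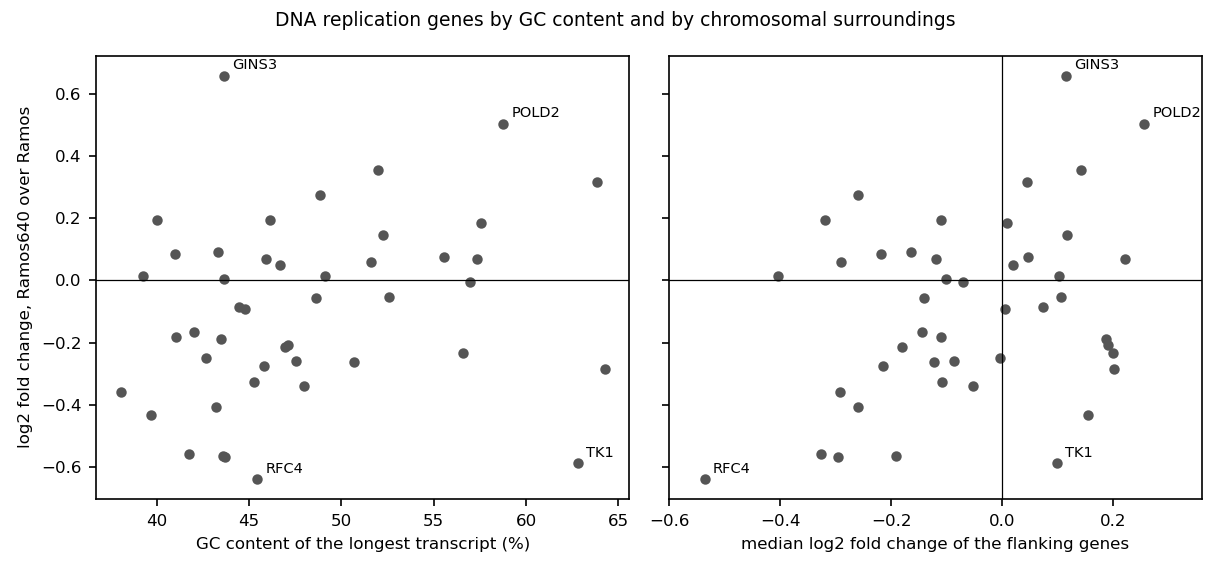
The log2 fold change of each of the 45 genes (vertical axis) is plotted against the GC content of its longest transcript (left, %) and against the median log2 fold change of its flanking genes (right). RFC4 stands at the far left of the right panel, at -0.54, and TK1 is low in the left panel in spite of 62.8% GC.

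Some counts may carry reads of other genes. TYMS shares 967 bases of exon with ENOSF1 on the opposite strand (7970 and 6017 reads, log2 fold change -0.024), and MCM7 also shares exon sequence with AP4M1 on the opposite strand (861 and 615 reads). PRIM1 shares 139 bases with NACA on the same strand, a gene of 28656 and 24510 reads (0.16). RFC4 shares only 18 bases with EIF4A2 on the opposite strand, which had nearly the same change (19200 and 10124 reads, -0.54). FEN1 shares 49 bases with FADS2 on the same strand (3980 and 1445 reads, -1.08).

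Rows named as pseudogenes were found for PCNA, RPA2, POLD2, FEN1 and RRM2. POLD2P1 held 422 and 715 reads, 5.54% and 8.62% of those of POLD2, and with them the log2 fold change of POLD2 would be 0.55. Those of RRM2 held 4.87% and 5.33%, and those of FEN1 3.15% and 1.94%, which moved RRM2 to -0.27 and FEN1 to 0.13.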

How the data were processed

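Total RNA of Ramos and Ramos640 cells, pooled from 3 passages per line, was sequenced on the Ion Proton. The authors removed adaptors, aligned reads to GRCh37 with MapSplice and deposited read counts per gene, without normalization. The counting program and its strand setting are not given in the sources used here. Size factors came from the median of ratios over 20810 genes, as in DESeq; TMM factors (edgeR 4.0.16) and total counts were alternatives. With 1 library per line neither edgeR nor DESeq2 can estimate a dispersion, so no test was run. The intervals were computed in Python 3.11.15 with scipy 1.17.1 and checked on simulated data.

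Lengths, GC content and overlaps came from GENCODE v44lift37, matched by symbol (26511 rows) or older symbol (2302 rows). The GC trend was a running median (501 genes, 100 or more reads each). Of the rows, 28 carry a spreadsheet number for a name. The genes, lists and promoters were chosen with earlier results of these data known. All 45 genes are named, and from each related list the 2 highest, the 2 lowest and genes at a defined place in the pathway. MKI67 and POLD4 were added after their values were seen.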

Additional observations from a re-analysis of the deposited data

How the results depend on the processing

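TMM factors, pseudocounts of 0.1 and 10 and added pseudogene reads moved no gene's value beyond its counting interval, although with TMM the summed reads went to -0.051 and the intervals above 0 from 15 to 12. Total counts moved the median of all genes by -0.080, changed the sign of 4 genes whose interval had excluded 0 (MCM2 -0.012, MCM3 -0.022, RPA3 -0.012, POLE -0.0054) and moved 27 others beyond their interval. On that scale the median of the replication genes was -0.17, of the loading factors and geminin -0.17, of MCM2-7 -0.053, of RPA -0.031, of the polymerases and primase -0.0054, of other licensing factors -0.32 and of other fork factors -0.22. The summed reads stood at -0.12, 0 genes were higher and 5 lower past 1.5-fold, and 9 intervals lay above 0. Against the median of all genes, the replication genes stood at -0.070 with size factors and -0.071 on total counts.

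With the GC trend removed, 7 genes whose interval had excluded 0 changed sign (ORC5 0.023, MCM2 -0.11, MCM3 -0.043, MCM7 -0.00039, MCM8 0.026, RFC5 0.014, POLE -0.087). Removing the trend moved 25 others beyond their interval. The medians became 0.023 for origin recognition, -0.0019 for the loading factors, -0.15 for MCM2-7, -0.22 for the clamp and loader, -0.017 for the polymerases, -0.075 for other licensing factors, -0.050 for other fork factors and -0.13 for S phase cyclins, and the summed reads -0.073. A fold of 2 left 0 genes higher and 0 lower. By longest transcript the ratios of highest to lowest subunit were 5.21 and 5.65 (MCM2-7), 25.9 and 33.6 (GINS), 3.34 and 4.0 (RPA), and 3.79 (RFC in Ramos). Minimums of 1 and 100 reads kept each count of replication genes. The cause of these shifts was not tested beyond what each setting changes by construction. No paired analysis was possible because there is 1 library per line.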
